A study of Mus musculus with 4 samples.

Results

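The genes described here are 9 genes of the mouse MHC class II pathway (Cd74, H2-Aa, H2-Ab1, H2-Eb1, H2-DMa, H2-DMb1, H2-DMb2, H2-Oa and H2-Ob) and Ciita, together 10 of the 32285 genes in the count matrices. They were taken by symbol and were chosen because their summed levels in these same macrophages, dendritic cells and B cells differed between libraries, so differences between libraries are given as a description with no test. Leukocytes (CD45+) were sorted from both hindpaws of male mice and their 3′ transcripts were counted in 10x droplets as unique molecular identifiers (UMIs, 1 per captured molecule). There was 1 library for each genotype and age, namely 12-week-WT with 12-week-DB and 21-week-WT with 21-week-DB. DB mice were Lepr db/db on C57BLKS/J and lack the long form of the leptin receptor, and WT mice were Lepr WT/WT littermates. Each library came from 2 to 3 pooled mice of 1 genotype, so spread between mice cannot be seen and no test between conditions was made. The intervals given are at 95% and exact, and reflect the error of counting alone.

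Class II molecules present peptides from engulfed material to CD4+ T cells. The H2-Aa and H2-Ab1 chains form I-A and H2-Eb1 is the beta chain of I-E, while Cd74, the invariant chain, blocks the groove until it is degraded. H2-DM (H2-DMa with an H2-DMb chain) then exchanges its last fragment for peptide, H2-O (H2-Oa with H2-Ob) restrains H2-DM, and CIITA is the coactivator that turns the whole set on without binding DNA itself. Dendritic cells and B cells express class II constitutively, and macrophages raise it with interferon-gamma.

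CIITA acts through factors bound to an X box and a Y box ahead of each class II gene, so the stretches that hold these boxes are shown for the members whose RefSeq promoter has the Y box. RefSeq promoter windows of 300 bases (250 before and 50 after the start site, GRCm38.p6) were matched by symbol for 7 members, with 8 windows. The letters TGATTGG (Y box) were found in 6 members and AACNNATGA (core of an X box) together with them in 4, where N is any base and both strands were searched. The 2 motifs do not overlap. Below, each stretch of 50 bases is read 5′ to 3′ on the gene's strand, and capitals mark the matched letters.
H2-Oa: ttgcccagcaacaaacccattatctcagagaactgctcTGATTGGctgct
H2-DMb2: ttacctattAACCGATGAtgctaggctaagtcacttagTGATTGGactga
H2-DMb1: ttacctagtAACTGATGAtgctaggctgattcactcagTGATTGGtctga
H2-Ob: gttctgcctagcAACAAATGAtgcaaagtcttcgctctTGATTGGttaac
H2-Aa: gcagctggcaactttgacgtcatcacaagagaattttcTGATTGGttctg
H2-Eb1: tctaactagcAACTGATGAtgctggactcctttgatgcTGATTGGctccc

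The stretches lie upstream of the RefSeq start sites, at chr17:34092296-34092345 (H2-Oa), chr17:34145119-34145168 (H2-DMb2), chr17:34153090-34153139 (H2-DMb1), chr17:34238808-34238857 (H2-Ob) and chr17:34305768-34305817 (H2-Eb1) on the plus strand and at chr17:34287862-34287911 (H2-Aa) on the minus strand. In the GENCODE annotation of the same build, the H2-DMb2 and H2-DMb1 stretches fall inside the gene bounds, as does the end of the H2-Oa stretch. The Y letters ended 38 to 85 bases before the start site, and the gap between X and Y letters was 20 bases in H2-DMb2 and H2-DMb1, 17 in H2-Ob and 19 in H2-Eb1. Of 32851 promoters of this length, 7.82% held the Y letters on either strand, 2.85% the X letters and 0.307% both. Neither H2-DMa window held either motif, which says only that these letters are not in those windows. The 8 H2 genes lie within chr17:34092340-34316674 and Ciita lies at chr16:10480059-10528418. Ciita, H2-Oa, H2-DMa and H2-Eb1 each overlap a gene on the other strand, and H2-DMa also overlaps CR974462.3 on its own strand.

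Values are given in a fixed order, WT before DB at 12 weeks and then WT before DB at 21 weeks. With a minimum of 200 genes and a maximum of 10% of UMIs from mitochondrial genes, 5271, 6552, 7270 and 8707 of 5998, 7463, 8208 and 9124 barcodes were kept. Cells were assigned to lineages by detected marker genes that include no member, which gave 1724, 1961, 1586 and 1416 macrophages, 324, 273, 717 and 143 dendritic cells, 323, 100, 193 and 47 B cells, and 1220, 2384, 2446 and 3880 lymphoid cells (T, innate lymphoid and NK cells). The markers were highest in their own lineage in all 4 libraries for 7 of 8 macrophage markers (all but Fcgr1), 8 of 10 dendritic markers (all but Ccr7 and Epcam), 6 of 6 B-cell markers and 12 of 12 lymphoid markers. Since the same markers assigned the cells, this describes the gate and is no independent check of the labels. Between 6 and 154 barcodes were shared by a pair of libraries, and without them each of 34 counts of members and class II-high shares stayed within 1.5 times or within its interval. The H2 genes of C57BLKS/J differ in sequence from those of the C57BL/6 reference, and the effect of this on read mapping was not tested.

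In macrophages, Cd74 and the classical chain genes H2-Aa, H2-Ab1 and H2-Eb1 were at intermediate levels in both 12-week libraries, highest in 21-week-WT and lowest in 21-week-DB. Levels are CPM (a gene's UMIs per 1000000 UMIs of the same cells), and with 3′ libraries they are compared between libraries and not between genes. Cd74 was at 6136, 5028, 8398 and 1998 CPM. The interval of each value was narrow, as with 1974 to 2021 for the 21-week-DB library, and none of the 4 overlapped. The I-A chains had the same order, with H2-Aa at 3338, 2590, 4420 and 934 and H2-Ab1 at 2174, 1627, 2949 and 596 CPM. H2-Eb1 was at 1577, 1172, 1950 and 477 CPM. The 4 genes together made up 13225, 10418, 17717 and 4005 CPM of the macrophage transcripts.

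The peptide exchange factors and Ciita were also lowest in 21-week-DB. H2-DMa was at 301, 307, 400.2 and 126 CPM and H2-DMb1 at 410, 299, 445 and 94.1 CPM. The other beta chain gene, H2-DMb2, was at 74.5, 47.9, 84.4 and 17.9 CPM. H2-DMa and Ciita were at like levels in both 12-week libraries. Ciita was at 31.5, 31.6, 35.4 and 10.4 CPM, from 580, 703, 660 and 145 UMIs, and its 21-week-DB interval of 8.78 to 12.2 lay below the other 3. Of the H2-O chains, H2-Ob was low, at 5.42, 4.72, 8.52 and 2.80 CPM from 403 UMIs over the 4 libraries. H2-Oa was near the limit of detection, with 4, 3, 5 and 0 UMIs. A count of 0 in 21-week-DB allows up to 3 UMIs, so no fold is given for H2-Oa.

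**Figure D1:**
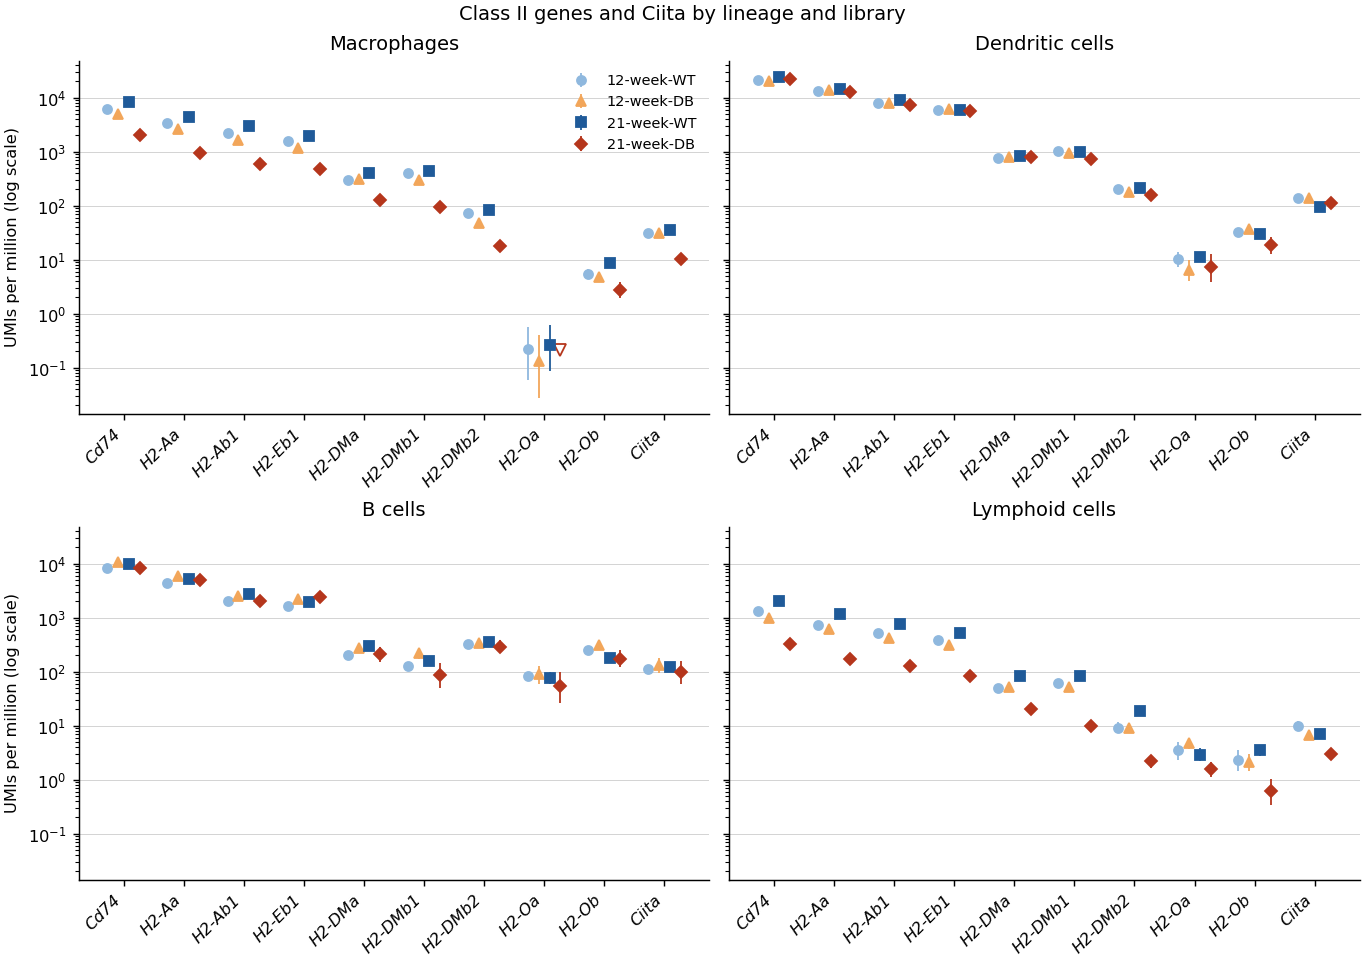
Level of each member (CPM, log scale) in macrophages, dendritic cells, B cells and lymphoid cells, with exact 95% Poisson intervals and 1 point per library. In macrophages the 21-week-DB points lie lowest (Cd74 at 1998 CPM against 8398 in 21-week-WT), while the 4 libraries lie close together in dendritic cells (20741 to 24008 for Cd74).

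A gene was ranked where it had 10 CPM or more in 1 of the compared libraries and 50 UMIs or more over both, which 8 members met in macrophages (not H2-Oa and H2-Ob). It was called where it differed by more than 1.5-fold. At 21 weeks, 8 of 8 ranked members were called lower in DB than WT and 0 higher, while 6.87% of all 8242 ranked genes were called lower and 9.91% higher. The median log2 ratio (DB over WT) was -2.15 over the members and 0.05 over all ranked genes. H2-Ab1 had the most negative ratio, at -2.31 (-2.34 to -2.27), which is 4.95-fold, and H2-DMa the least, at -1.66 (-1.74 to -1.59), which is 3.17-fold. Ciita was at -1.77 (-2.03 to -1.50), or 3.40-fold lower in 21-week-DB, and Cd74 at -2.07 (-2.09 to -2.05).

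At 12 weeks, 1 of 8 members, H2-DMb2 at -0.64 (-0.76 to -0.52), was called lower in DB and 0 higher, beside 4.83% and 1.68% of all 8347 ranked genes. H2-Aa, H2-Ab1, H2-Eb1 and H2-DMb1 lay between -0.45 and -0.37, and Cd74 at -0.29. H2-DMa, at 0.03 (-0.03 to 0.08), and Ciita, at 0.01 (-0.15 to 0.17), had intervals that included 0. The median of the members was -0.39 and that of all ranked genes 0.01. Each library entered 2 of the comparisons, since the ages were also compared within each genotype. With age in WT, 0 of 8 members passed 1.5-fold in either direction (7.57% of ranked genes were lower and 1.45% higher at 21 weeks), and their log2 ratios of 21 over 12 weeks ran from 0.12 (H2-DMb1) to 0.45 (Cd74). With age in DB, 8 of 8 were lower at 21 weeks and 0 higher, beside 12% and 7.18% of ranked genes, with ratios from -1.67 (H2-DMb1) to -1.28 (H2-DMa). Cell Ranger 5.0.0 was named in the 12-week files and 6.0.0 in the 21-week files, so software and age cannot be told apart in these 2 comparisons.

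**Figure D2:**
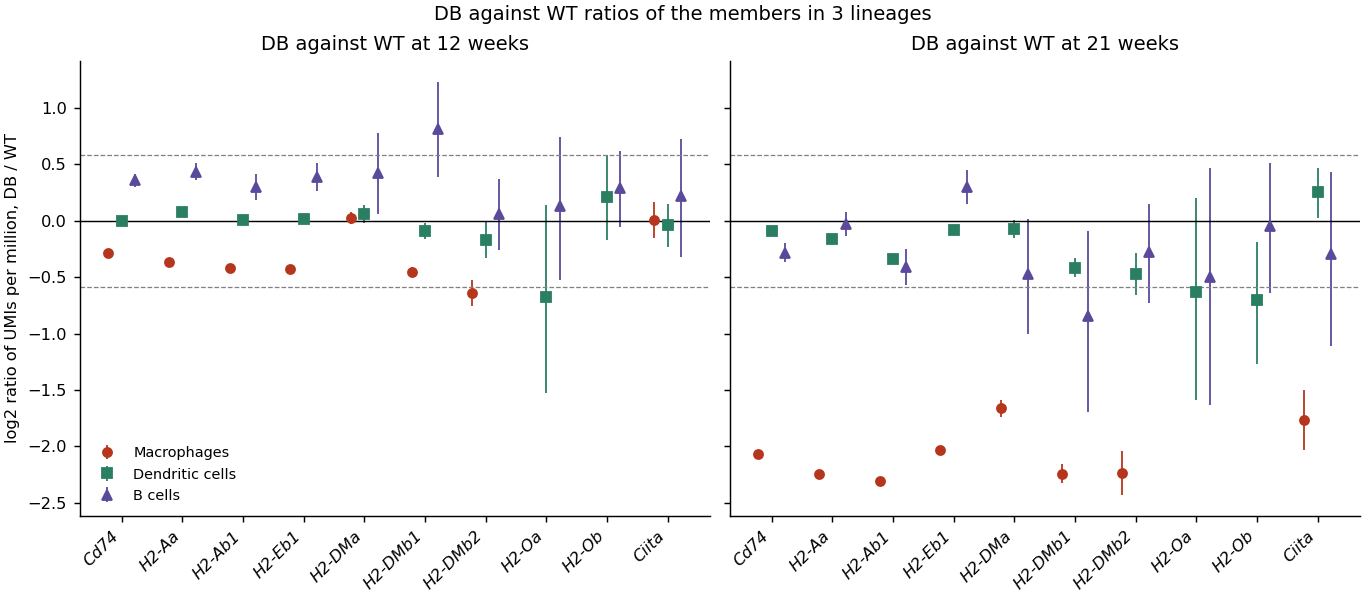
Log2 ratio of CPM, DB over WT, for each member at 12 and at 21 weeks in macrophages, dendritic cells and B cells, with exact 95% intervals for counting error. At 21 weeks the macrophage points with enough UMIs lie between -2.31 and -1.66, and the dendritic points of the same genes between -0.47 and 0.25.

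MHC class I genes, read as a comparison in the same macrophages, were also lower in DB at both ages. B2m, the class I light chain, was at a log2 DB over WT ratio of -1.02 in the younger mice, and the interval in the older mice was -1.03 to -0.97. The class I heavy chain gene H2-K1 was at -0.95 and -1.32, and H2-D1 at -0.56 and -0.49. In the younger mice the B2m and H2-K1 ratios were thus more negative than that of every ranked class II member (lowest -0.64), whereas in the older mice all 3 class I ratios were less negative than theirs (-2.31 to -1.66). C1qa, a complement gene of resident macrophages, was at 0.00 (-0.02 to 0.02) at 21 weeks. Markers of other lineages in the macrophage sums also differed between libraries. The 10 dendritic markers summed to 102, 57.3, 73.4 and 53.0 CPM, with 0, 0, 1 and 1 of them at 0, and the 6 B-cell markers to between 1.51 in 21-week-DB and 12.3 in 12-week-WT. The 5 monocyte markers, none of which was at 0, summed to 270, 421, 261 and 119 CPM. Their part in the class II levels was not tested.

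Class II transcripts were spread unevenly over macrophages, so the cells were also counted. A macrophage was called class II-high where H2-Aa, H2-Ab1, H2-Eb1 and Cd74 together gave at least 1% of its UMIs, a threshold set after the data were seen. This held for 564 of 1724, 617 of 1961, 691 of 1586 and 132 of 1416 macrophages. The shares were 32.7% (30.5 to 35.0), 31.5% (29.4 to 33.6), 43.6% (41.1 to 46.1) and 9.32% (7.86 to 10.96). The 21-week-DB share lay below the other 3, whereas those of both 12-week libraries overlapped. In lymphoid cells, most of which do not make class II in mice, the share was 2.13%, 2.22%, 4.01% and 0.567%. At a fixed depth of 2000 UMIs a cell, class II-high macrophages made up 33.0%, 31.8%, 44.2% and 9.36%. Between 26 and 106 macrophages a library lay from 0.8% to 1.2%, near the threshold.

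Among class II-high macrophages, the level per cell differed far less between libraries than the share. The median high macrophage gave 3.38%, 2.68%, 3.56% and 2.86% of its UMIs to the 4 genes. Ciita was at 77.7, 85.5, 70.5 and 73.7 CPM in these cells and at 4.38, 5.60, 4.81 and 2.74 in the others. High cells were selected on the level itself, so their levels cannot fall below the threshold and these values carry no test. The remaining macrophages had a median of 0.0633%, 0.0493%, 0.0658% and 0.0107%, close to the lymphoid medians of 0.0607%, 0.0417%, 0.0591% and 0.0092%.

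**Figure D3:**
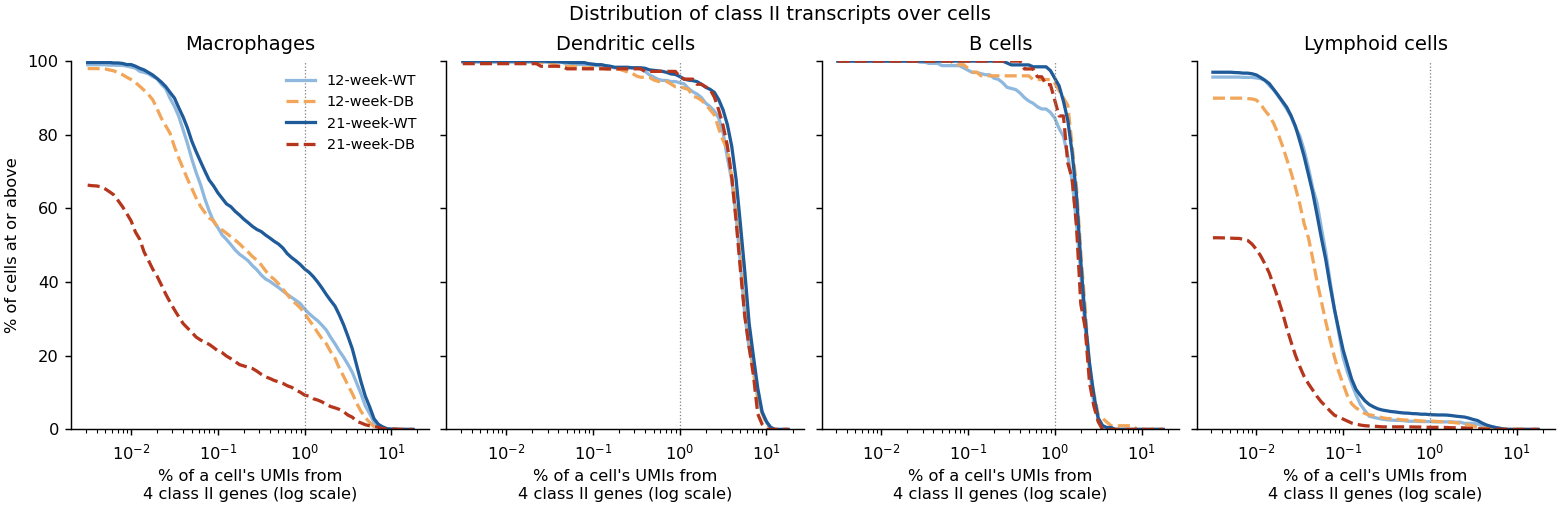
Percent of cells (vertical axis) in which H2-Aa, H2-Ab1, H2-Eb1 and Cd74 gave at least the percent of UMIs on the horizontal axis (log scale), by lineage and library; the dotted line marks 1%. The 21-week-DB macrophage curve crosses that line at 9.32% of cells and the 21-week-WT curve at 43.6%, whereas the dendritic curves cross it at 93.0% to 95.8%.

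Class II-high macrophages were poor in Lyve1, the hyaluronan receptor of perivascular resident macrophages, at 187, 109, 357 and 15.9 CPM against 1805, 1463, 2692 and 1140 in the other macrophages. They were rich in Ccr2, the chemokine receptor of monocyte-derived cells, at 596, 878, 395 and 556 CPM against 58.3, 173, 36.5 and 34.3. Of macrophages with a Lyve1 UMI, 13.7%, 12.5%, 17.4% and 1.07% were class II-high. Of macrophages without one, 65.7%, 55.0%, 79.7% and 25.3% were. Both kinds were thus lowest in 21-week-DB, with intervals of 0.515 to 1.96% and 21.5 to 29.4%.

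The share of macrophages with a Lyve1 UMI was itself 63.5%, 55.3%, 58.0% and 66.0%. Between 21-week-WT and 21-week-DB the 4-gene sum went from 7262 to 642 CPM in macrophages with a Lyve1 UMI, a log2 ratio of -3.50 (-3.54 to -3.46). In macrophages without one it went from 33480 to 11480 CPM, a log2 ratio of -1.54. Whether these ratios differ between the kinds of macrophage was not tested, and a cell without a Lyve1 UMI may still express it. Macrophages with a Lyve1 UMI held 88.6 UMIs of the 4 genes per cell in 21-week-WT and 6.60 in 21-week-DB. Lymphoid cells of these libraries held 34.5 and 4.44, so the 21-week-DB value was near the lymphoid level, which serves as the check on free RNA. The lymphoid level was not subtracted within the strata. With the strata weighted as in the WT library, 8 of 8 members stayed called lower at 21 weeks and 3 of 8 were called lower at 12 weeks.

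**Figure D4:**
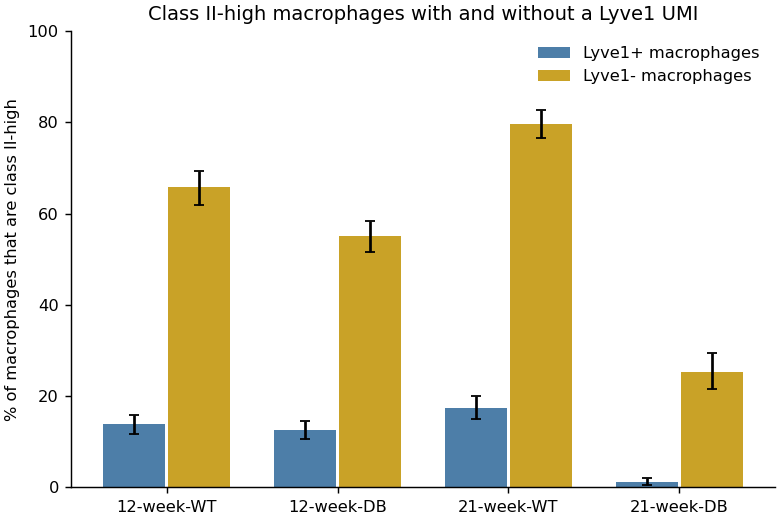
Percent of macrophages that were class II-high, among macrophages with (Lyve1+) and without (Lyve1-) a Lyve1 UMI, by library, with exact 95% binomial intervals. The 21-week-DB bars, at 1.07% and 25.3%, are the lowest of each kind.

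Class II transcripts in cells not expected to make them were also lowest in 21-week-DB. Lymphoid cells, which serve as the check on free RNA, had a 4-gene sum of 3000, 2355, 4480 and 711 CPM, and mast cells 1635, 1993, 4747 and 512. Lymphoid sums include class II-high barcodes, which made up 2.13%, 2.22%, 4.01% and 0.567% of lymphoid cells. The median lymphoid cell lay lower than the sums, with 0.0607%, 0.0417%, 0.0591% and 0.0092% of its UMIs from the 4 genes. The part of class II-high barcodes in the lymphoid level was not tested, so that level may exceed free RNA. Lymphoid UMIs per cell came to 14.9%, 13.2%, 16.6% and 11.3% of those of a macrophage, to at most 4.63% of those of a dendritic cell, and to 32.2%, 23.5%, 40.9% and 6.47% of those of a B cell. Per cell, mast cells held 3.93, 4.12, 10.8 and 0.887 UMIs of the 4 genes, against 21.1, 15.6, 34.5 and 4.44 in lymphoid cells. Neutrophils held 3.59, 2.78, 22.5 and 0.452. Which of these is nearest to free RNA was not tested. With the lymphoid level subtracted, all 8 macrophage members were still called lower at 21 weeks. The level was not the same in all lymphoid cells. T cells with UMIs of at least 2 Cd3 genes had 3392, 2711, 5023 and 689 CPM, against 2251, 1448, 2535 and 703 in lymphoid cells with none. H2-Oa, near the limit of detection in macrophages, was at 3.50, 4.76, 2.92 and 1.57 CPM in lymphoid cells.

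Of macrophages, dendritic cells and B cells, dendritic cells held the highest levels of Cd74, H2-Aa, H2-Ab1, H2-Eb1, H2-DMa and H2-DMb1 in each library, while H2-DMb2, H2-Oa and H2-Ob were highest in B cells. Cd74 was at 20838, 20741, 24008 and 22499 CPM, and the 4-gene sum at 48040, 48737, 53643 and 48328. H2-DMa was at 764, 795, 841 and 799 and H2-DMb1 at 1020, 958, 977 and 732 CPM. Ciita was at 140, 136, 95.2 and 113 CPM, so its 21-week-DB level was not the lowest. At 12 weeks 1 of 10 ranked members was called lower in DB and 0 higher (3.32% and 4.98% of ranked genes), and at 21 weeks 2 lower and 0 higher (11% and 16.3%). These were H2-Oa at both ages, at -0.67 (-1.52 to 0.14) and -0.63 (-1.58 to 0.20), and H2-Ob at 21 weeks, at -0.71 (-1.27 to -0.18). Both H2-Oa intervals included 0, and the gene's 21-week ratio turned to 0.28 with a stricter gate. The other 8 lay between -0.47 (H2-DMb2) and 0.25 (Ciita) at 21 weeks. From 12 to 21 weeks 0 of 10 members were called in WT (12.4% of ranked genes lower, 1.47% higher), and in DB 1 of 9 was lower, H2-Ob at -1.02, and 0 higher (21.4% and 8.87%).

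The make-up of the dendritic cells differed between libraries. Type 1 (cDC1) cells numbered 84, 49, 178 and 9, and type 2 (cDC2) cells 173, 151, 392 and 92. In cDC2 cells, which present to CD4+ T cells, Cd74 was at 24715, 23969, 28352 and 24447 CPM and Ciita at 127, 140, 90.6 and 108. In cDC1 cells, which specialise in cross-presentation to CD8+ T cells, Cd74 was at 16499, 17153, 19475 and 18960 CPM. Mature dendritic cells, marked by Ccr7, Fscn1 and Ccl22, had less of Ciita in each library than the cDC2 cells, at 68.0, 104, 57.4 and 79.2 CPM from 27, 18, 66 and 16 cells. These values rest on 22, 17, 49 and 21 UMIs, and in both DB libraries the interval overlapped that of the cDC2 cells.

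In B cells the intervals were wider, since cells were few, and lymphoid cells held up to 51.4% as many UMIs per cell of the classical gene H2-Ab1 (in 21-week-WT). Cd74 was at 8283, 10630, 9921 and 8162 CPM and Ciita at 114, 132, 121 and 98.8. H2-DMb1 was at 126, 222, 158 and 87.8 CPM and was the member called in both comparisons of genotypes. Its log2 ratio of DB over WT was 0.82 (0.39 to 1.23) at 12 weeks and -0.85 (-1.70 to -0.09) at 21 weeks. Lymphoid cells of the same libraries held 86.8%, 49.2%, 94.1% and 18.2% as many H2-DMb1 UMIs per cell, and the part of free RNA in the B-cell values was not tested. Mast cells held fewer, at 0.0929, 0.114, 0.150 and 0.0172 H2-DMb1 UMIs per cell, against 0.502, 0.69, 0.674 and 0.340 in B cells. Of 10 ranked members, 1 was higher and 0 lower in DB at 12 weeks (8.84% and 11.7% of ranked genes), and 1 lower and 0 higher at 21 weeks (28.2% and 12.2%). From 12 to 21 weeks 0 of 10 were called in WT (11.4% of ranked genes lower, 8.36% higher), and in DB 2 of 9 were lower, H2-DMb1 and H2-Ob, and 0 higher (28.9% and 13%). In monocytes, which are few, 8 of 8 ranked members were lower in DB and 0 higher at each age, beside 9.89% and 10.8% of ranked genes at 12 weeks and 20% and 11.3% at 21 weeks.

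The libraries served as replicates for comparisons between lineages, in which sums over macrophages, dendritic cells and B cells of the same 4 libraries were fitted with edgeR (quasi-likelihood test, each library a block, 12 sums, 11109 genes tested, Benjamini-Hochberg adjusted p under 0.05). The replicates differ in genotype and age, so the spread includes those differences. Against macrophages, dendritic cells had higher levels of 10 of 10 members and lower of 0, beside 20% of all genes higher and 23% lower. For Cd74, H2-Aa, H2-Ab1 and H2-Eb1, which commonly define dendritic cells, this is a description, at log2 differences of 2.35 to 2.59. Ciita was higher by 2.42 ± 0.22 (SE, n = 4 libraries, adjusted p = 4.84e-07 by edgeR), and H2-DMa by 1.79 ± 0.21 (adjusted p = 4.78e-06 by edgeR). All 10 calls were kept in every alternative, including without each library. H2-Oa had 12 UMIs over all macrophages and entered the fit through the lineages where it was higher, so its call against macrophages, here and for B cells, is a description.

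Against macrophages, B cells were higher in 7 members and lower in 1, beside 28.5% and 34% of genes. Those higher were Cd74, H2-Aa, H2-Eb1, H2-DMb2, H2-Oa, H2-Ob and Ciita, of which Ciita differed by 2.21 ± 0.26 (SE, n = 4 libraries, adjusted p = 3.28e-06 by edgeR). H2-DMb1 was lower by 0.93 on the log2 scale (log2 difference -0.93 ± 0.28, adjusted p = 0.00904 by edgeR), and this call was lost without 12-week-WT (-0.66), without 21-week-WT (-0.78) and with the stricter gate (-0.49). H2-Ab1 (adjusted p = 0.0567) and H2-DMa (adjusted p = 0.837) missed the threshold of edgeR's test. Over the alternatives (edgeR or DESeq2) the adjusted p of H2-Ab1 ran from 0.00604 to 0.729, so whether H2-Ab1 was called depended on the processing. Without 21-week-DB, H2-Eb1 (0.35) was no longer called and H2-DMa (-0.37) was called lower. H2-Eb1 also lost its call without 12-week-DB (0.81) and with the lymphoid level subtracted (0.55).

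B cells and dendritic cells differed in which H2-DM beta chain and how much H2-O they held. B cells were higher in 3 members and lower in 6, beside 24.7% and 27.9% of genes. Higher were H2-Oa by 2.96 ± 0.25 (SE, n = 4 libraries, adjusted p = 1.79e-07 by edgeR), H2-Ob by 2.83 ± 0.23 (adjusted p = 1.15e-07 by edgeR) and H2-DMb2 by 0.64 ± 0.25 (adjusted p = 0.0455 by edgeR). The H2-DMb2 call was lost in 7 of the alternatives, among them DESeq2 and leaving out 12-week-WT, 12-week-DB or 21-week-WT, with adjusted p up to 0.178. H2-DMb1 was lower in B cells by 2.87 ± 0.29 on the log2 scale (log2 difference -2.87, adjusted p = 1.12e-06 by edgeR). Ciita missed the threshold at -0.22 ± 0.25 (adjusted p = 0.501 by edgeR), with 114, 132, 121 and 98.8 CPM in B cells and 140, 136, 95.2 and 113 in dendritic cells.

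The ratio of H2-DMb2 to H2-DMb1 UMIs was 2.57, 1.52, 2.24 and 3.31 in B cells. It was 0.200, 0.189, 0.222 and 0.214 in dendritic cells and 0.182, 0.160, 0.190 and 0.191 in macrophages, so the B-cell values did not overlap with either. The promoter stretches of these 2 neighbouring genes, shown above, are closely alike. The genes are near-identical copies in part, with 94.4% identity over 1255 aligned bases of their reference transcripts, but among the last 500 bases of the H2-DMb2 transcript, the part nearest to what 3′ libraries read, 0 of 411 windows of 90 bases also occurred in H2-DMb1. H2-Oa was at 82.4, 90.03, 77.8 and 54.9 CPM in B cells against 10.3, 6.48, 11.3 and 7.32 in dendritic cells. H2-Ob was at 253, 309, 181 and 176 CPM in B cells against 32.5, 37.6, 30.3 and 18.6. In every library both chains of H2-O were thus higher in B cells than in dendritic cells.

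**Figure D5:**
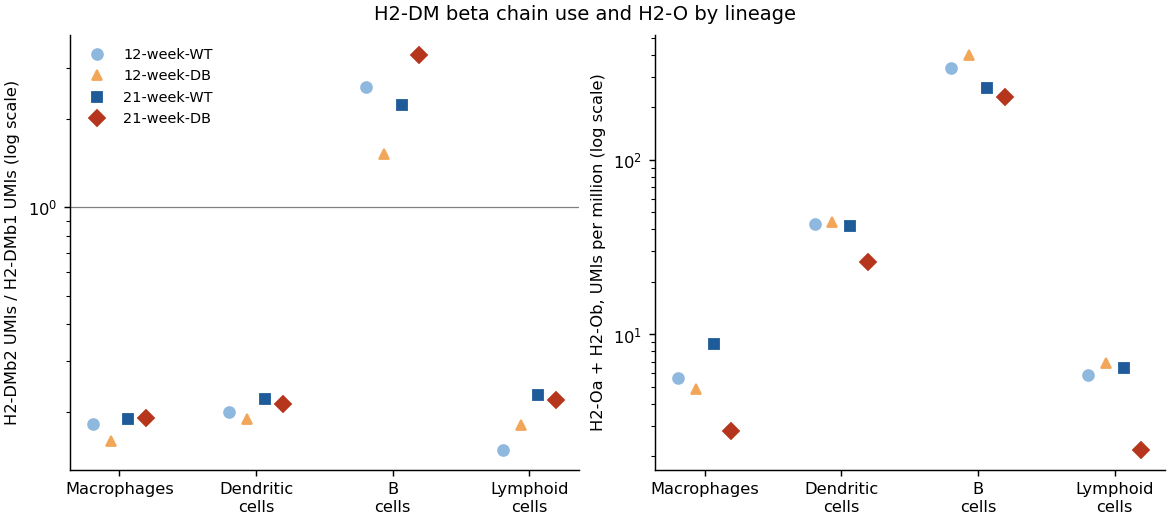
Left, ratio of H2-DMb2 to H2-DMb1 UMIs (log scale); right, summed H2-Oa and H2-Ob in CPM (log scale), with 1 point per library in macrophages, dendritic cells, B cells and lymphoid cells. The ratio is 1.52 to 3.31 in B cells and 0.160 to 0.222 in macrophages and dendritic cells.

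A list of 33 further genes of the pathway covered factors at class II promoters and activators of Ciita, interferon-gamma signalling, processing proteases, turnover, costimulation, and IL-10 and TGF-beta receptors. Calls in this list are set beside the share of all ranked genes called lower and higher in the same comparison. In macrophages 6 of 31 ranked genes were lower in DB and 0 higher at 12 weeks (4.83% and 1.68% of all genes), among them Socs1, a feedback inhibitor of interferon-gamma signalling, at -1.08. At 21 weeks 4 of 31 were lower and 1 higher (6.87% and 9.91%). Irf4, an activator of class II genes, was at -1.54 and Ctsl, a lysosomal protease, at 1.05. The 8 ranked genes for promoter factors and activators held 1 of these calls, Irf4. From 12 to 21 weeks 1 was lower (Cd80, a costimulatory ligand, at -0.85) and 1 higher (Cd83, which protects surface class II from degradation, at 0.75) in WT, beside 7.57% and 1.45% of all genes. In DB 1 was lower (Irf4, at -1.69) and 7 higher, beside 12% and 7.18%, led by Irf1, which acts at the Ciita promoter, at 1.38, and Socs1 at 0.83.

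In dendritic cells 2 of 31 list genes were lower in DB and 0 higher at 12 weeks (3.32% and 4.98% of all genes), among them Socs1 at -0.99. At 21 weeks 4 of 30 were lower, near the 11% of all genes, and 10 were higher, beside 16.3%. These included Irf8 at -2.66 and the costimulatory genes Cd86 and Cd40, each at 1.24. Irf8 also defines cDC1 cells, which were 178 of 717 dendritic cells in 21-week-WT and 9 of 143 in 21-week-DB. From 12 to 21 weeks 6 of 31 were lower and 0 higher in WT (Rfx5, a subunit of the complex at the X box, at -1.08, and Socs1 at -1.06), beside 12.4% and 1.47% of all genes. In DB 5 of 30 were lower and 9 higher, beside 21.4% and 8.87% (Irf8 at -2.43, Cd80 at 1.24 and Socs1 at 1.10).

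In B cells 2 of 25 list genes were lower in DB and 4 higher at 12 weeks, beside 11.7% and 8.84% of all genes (Irf1 at -0.78, March1, which marks surface class II for degradation, at 0.89, and Jak2 at 0.84). At 21 weeks 5 of 21 were lower and 2 higher, near the shares of all genes, 28.2% and 12.2% (Ctsb at -1.63, Irf1 at -1.55, and the interferon-gamma receptor chains Ifngr1 at 0.73 and Ifngr2 at 0.64). From 12 to 21 weeks 4 of 28 were lower and 4 higher in WT (Irf4 at -0.99, Cd40 at -0.89, Cd86 at 1.27, Il10rb at 0.88), beside 11.4% and 8.36% of all genes. In DB 4 of 10 were lower and 2 higher, beside 28.9% and 13% (Irf4 at -1.30, March1 at -0.77, Cd86 at 0.94, Ctss at 0.59).

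The genes outside the members and this list whose log2(CPM + 1) was most like that of the 4-gene sum were found over 28 sums (7 lineages in 4 libraries) among 3115 genes. They were Plekho1 with Pearson's r = 0.91, Wdfy4, needed by dendritic cells for cross-presentation, with 0.89, Gdi2, which recycles Rab proteins, with 0.89, Trappc5, of a vesicle tethering complex, with 0.84, and Tcf4, a transcription factor, with 0.83. The 3 H2-DM genes had r of 0.93 to 0.95. The 28 sums share 4 libraries and their free RNA, so these values are a description.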

How the data were processed

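Reads had been aligned by the authors to mm10 (Cell Ranger), and raw UMI counts for each gene and barcode were deposited; the headers name 5.0.0 for the 12-week and 6.0.0 for the 21-week files, whereas the labels name 5.0.0 only and the paper 6.0. Barcodes needed 200 genes or more and no more than 10% mitochondrial UMIs, and no doublet caller was used in the main analysis. The deposited UMIs came to 47851794 and 57025899 (WT and DB, 12 weeks) and to 69626521 and 54989592 (WT and DB, 21 weeks).

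A barcode was assigned to a lineage when it held UMIs of at least 5 of 8 macrophage, 3 of 6 B-cell, 4 of 12 lymphoid, 3 of 5 monocyte, 4 of 6 mast or 4 of 5 neutrophil markers and met no other of these minimums. Dendritic cells held at least 2 of 10 markers and at most 3 macrophage, 2 lymphoid and 1 B-cell markers. A macrophage or B cell with 3 or more dendritic markers was left out as mixed, as was a barcode that met 2 minimums. These minimums, the 1% threshold and the motifs were set after the data were seen, and the members and gene lists were chosen with earlier results of these data known.

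Counts were summed per lineage and library, scaled to CPM and given with exact 95% Poisson intervals, ratios with exact conditional binomial intervals, and shares with Clopper-Pearson intervals. A count of 0 allows up to 3 counts. Lineages were compared with the quasi-likelihood test of edgeR 4.0.16 after filterByExpr and TMM scaling, run in R 4.3.3. Tested on simulated counts of 10924 genes for dendritic cells against macrophages, with 200 genes changed, the fit recovered 68.0% of 2-fold and 100% of 4-fold changes with 9 false calls. Apart from the changed genes, all simulated sums had the same mean profile and a fixed dispersion. They held no effect of library, genotype or age, so recovery in the real sums was not measured. Besides the 10 members, the genes named are the pathway genes with the 2 highest and 2 lowest ratios past 1.5-fold in each comparison and the 5 genes most like the 4-gene sum; class I, Lyve1 and Ccr2 values were chosen after the data were seen. Some items that this rule would name are not reported here. H2-Ea, which pairs with H2-Eb1, was not analysed here. Alternatives were a minimum of 500 genes, a maximum of 5% mitochondrial UMIs, Scrublet removal at 0.8% per 1000 barcodes, a stricter gate, lymphoid background subtracted, TMM scaling, thinning to 2000 UMIs, a 2-fold threshold, a minimum of 100 CPM, strata weighted by Lyve1, H2-Ab1 alone, DESeq2 1.42.0 and its size factors, no filter, a fit with no library block, and fits without each library. Leaving out shared barcodes was added after the data were seen.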

Additional observations from a re-analysis of the deposited data

Results flagged for a closer look

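Changes with age in opposite directions in WT and DB macrophages were seen for all 8 ranked members; these differences were not tested, since each condition had 1 library. The log2 ratio of 21 over 12 weeks in WT minus that in DB was 1.78 for Cd74 (0.45 in WT and -1.33 in DB), 1.88 for H2-Aa, 1.89 for H2-Ab1, 1.60 for H2-Eb1, 1.69 for H2-DMa, 1.79 for H2-DMb1, 1.59 for H2-DMb2 and 1.77 for Ciita (0.17 and -1.60).

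Single members also had ratios of opposite sign in 2 lineages, which was not tested either. At 21 weeks the DB over WT ratios were otherwise negative in dendritic cells (all members but Ciita), as in macrophages. In B cells they were negative in the main analysis (all but H2-Eb1), but the sign depended on the processing. Over the alternatives, B-cell Cd74, H2-Aa, H2-Ab1 and H2-DMa reached 0.29, 0.64, 0.48 and 0.29. With the lymphoid level subtracted, B-cell Cd74 was at 6264 CPM in 21-week-WT and 7643 in 21-week-DB. From 12-week-DB to 21-week-DB, Cd74 was at -1.33 in macrophages and 0.12 in dendritic cells, a difference of -1.45. At 21 weeks the DB over WT log2 ratio of H2-Eb1 was -2.03 in macrophages and 0.30 in B cells (a difference of -2.33), and that of Ciita -1.77 in macrophages and 0.25 in dendritic cells (-2.02). For H2-DMb1 at 12 weeks the ratio was 0.82 in B cells, against -0.45 in macrophages (a difference of -1.27) and -0.09 in dendritic cells (-0.91), and within B cells the 12-week ratio exceeded the 21-week ratio by 1.66.

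Barcodes that met no lineage's minimum, used in no comparison, held class II transcripts above the lymphoid level in all 4 libraries. Their 4-gene sum was 32338, 21923, 35732 and 10386 CPM in 705, 1042, 1241 and 1619 barcodes (WT and DB at 12 weeks, then WT and DB at 21 weeks), against 3000, 2355, 4480 and 711 in lymphoid cells. These sums also lay above those of macrophages in each library. In UMIs of the 4 genes they held 195751, 170049, 310092 and 83270, against 243862, 231833, 330596 and 55810 in macrophages. The class II-high shares are of assigned macrophages only, and a looser gate was not run.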

How the results depend on the processing

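In macrophages at 21 weeks, the log2 ratio of DB over WT stayed past 1.5-fold for the ranked members in all 86 values of 11 alternatives (-2.69 to -1.43). Among these, the 2-fold threshold and the minimum of 100 CPM change only the call or the filter. Their ratios equal the main ones and could not move. The single macrophage member called at 12 weeks was not called with the stricter gate, thinning, a 2-fold threshold or a minimum of 100 CPM (0 each), and Lyve1 weighting gave 3. TMM scaling gave 2 members higher from 12-week-WT to 21-week-WT, in place of 0. In dendritic cells, the count of members lower in DB at 12 weeks (1) was 0 with the stricter gate, thinning, subtraction, TMM scaling, a 2-fold threshold or a minimum of 100 CPM. At 21 weeks it was 1 in place of 2 with at most 5% mitochondrial UMIs, the stricter gate or subtraction and 0 with thinning, 2-fold or the minimum of 100, and H2-Oa turned to 0.28 with the stricter gate. With age it was 1 in place of 0 in WT under the stricter gate or thinning, and 0 in place of 1 in DB under the stricter gate, thinning or the minimum of 100. In B cells at 12 weeks, the members higher in DB were 4 with the stricter gate, 3 with subtraction and 0 at 2-fold, in place of 1. At 21 weeks those lower were 2 with Scrublet removal, the stricter gate or thinning and 0 with subtraction or 2-fold, in place of 1, and subtraction gave 2 higher. With age, the stricter gate gave 1 higher in WT, and subtraction gave 1 lower and 1 higher and 2-fold 1 lower in DB. Class II-high shares by H2-Ab1 alone were 40.2%, 41.6%, 52.8% and 13.8%, and 47.4% in 21-week-WT with at most 5% mitochondrial UMIs. Between B cells and macrophages, members lower were 2 with subtraction and 0 with the stricter gate in place of 1, and 0 to 2 without each library; H2-DMa turned to 0.28 with the stricter gate, 0.082 without 12-week-WT and 0.0042 without 21-week-WT, and was -0.37 without 21-week-DB. The cause of these changes was not tested. No paired analysis was possible because each condition had 1 library (between lineages, each library was a block). Low counts limit H2-Oa, H2-Ob and the 47 B cells of 21-week-DB.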

Other observations

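Monocytes, defined by Plac8, Ly6c2, Chil3, Ccr2 and Thbs1, also differed between libraries in class II. There were 139, 106, 346 and 74 of them (WT and DB at 12 weeks, then WT and DB at 21 weeks). Cd74 was at 5356, 2581, 7527 and 646 CPM and Ciita at 65.6, 22.3, 50.4 and 6.73. For the 4-gene sum, log2 of DB over WT was -1.16 in younger and -3.78 in older mice. Class II-high monocytes made up 31.7%, 15.1%, 43.1% and 2.70%, the last from 2 of 74 cells (0.329 to 9.42%). H2-DMa, which loads peptides, came to 4.21%, 5.53%, 3.85% and 13.4% of the 4-gene UMIs in monocytes, against 2.28%, 2.94%, 2.26% and 3.15% in macrophages. Lymphoid UMIs per cell of the 4 genes came to 15.5%, 38.5%, 20.0% and 35.8% of those of a monocyte. With that level subtracted, the monocyte sum was 10591, 3453, 13610 and 795 CPM. The alternatives were not run on the monocyte calls, and monocytes with dendritic markers were not left out as mixed. No test was made, since each condition had 1 library.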
